A study of Mus musculus with 4 samples.

Results

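The glycolysis and hypoxia response genes are 38 genes named by symbol, of the 23282 rows of each count table. They comprise 17 glycolytic enzymes, with the lactate dehydrogenases among them, and 21 other genes: carriers of glucose and lactate, regulators of glycolytic flux, oxygen sensors and other targets of hypoxia-inducible factor (HIF). Each symbol stood on 1 row. The tables come from 4 libraries of mouse dorsal root ganglion explants, taken from C57BL/6 embryos at embryonic day 13 and grown on Matrigel. All cultures were in growth medium to day in vitro (DIV) 8 and in myelination medium afterwards. The control cultures were harvested at 11 or 19 DIV without stimulation. The electrically stimulated (ES) cultures received 20 Hz at 50 mV/mm for 1 h at 10 DIV and were harvested at the same ages. Each of the 4 groups was 1 library from 3 pooled explants, so no value has a replicate, and a difference between groups cannot be told apart from one between pools of explants or between libraries. The explants were whole, unsorted ganglia, and in such bulk RNA fewer cells of a type and less RNA per cell cannot be told apart.

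Glycolysis splits glucose to pyruvate in the cytosol, and lactate dehydrogenase turns pyruvate to lactate. In peripheral nerve, Schwann cells are known to pass lactate to axons, and sensory neurons and glia use different isoforms of several of the enzymes. When oxygen is low, the prolyl hydroxylases that mark HIF for degradation slow down, and HIF raises genes of glycolysis, blood vessel growth and mitochondrial turnover.

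Library totals were 5782834 to 7830950 reads. Levels are given as CPM, reads scaled to a common library size, after TMM scaling. The libraries read tags at transcript 3' ends, so CPM was not divided by gene length, and levels are compared across libraries rather than between genes. Reads were clumped: of the genes expected at 200 to 1000 reads from the other libraries, 4.10% (control at 11 DIV) to 9.39% (ES at 19 DIV) had 0. Intervals in parentheses are therefore 95% spread-adjusted intervals, made from counts divided by the spread between the 2 libraries relative to counting error (208 to 258). They describe the libraries, not the conditions. Under the size rule a gene counts as called where the libraries differ 2-fold or more, the 95% counting interval leaves out equality and the higher library has 50 reads or more. The spread-adjusted rule asks the same of size and reads, and that the interval made after the division leave out equality at 99%. Sensory neuron, Schwann cell and fibroblast markers were present in every library. Among the neuronal markers, Pou4f1 had 0 reads in control at 11 DIV, and Isl1 and Snap25 had 0 in ES at 19 DIV.

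The glycolytic enzymes as a group had their highest levels at 11 DIV and their lowest in the ES library at 19 DIV. The summed level of the 17 enzymes was 5932 CPM in control and 4661 CPM in ES at 11 DIV, and 3684 and 2462 CPM at 19 DIV. Without Aldoa and Pkm, which gave the most reads, the other 15 summed to 2972, 2993, 2355 and 1716 CPM in the same order, so the 2 libraries at 11 DIV were then level. Of the 16 enzymes averaging 50 reads or more, 11 had their lowest level in ES at 19 DIV (68.8%, against 23.4% of 9759 genes with such a mean). Control at 11 DIV held the highest level of 8 of them (50.0%, against 24.8% of all), and ES at 11 DIV that of 5 (31.3%, against 23.4%). The other hypoxia response genes did not share this order: their lowest levels were spread over the libraries, with 4 to 6 of 20 in each.

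**Figure D1:**
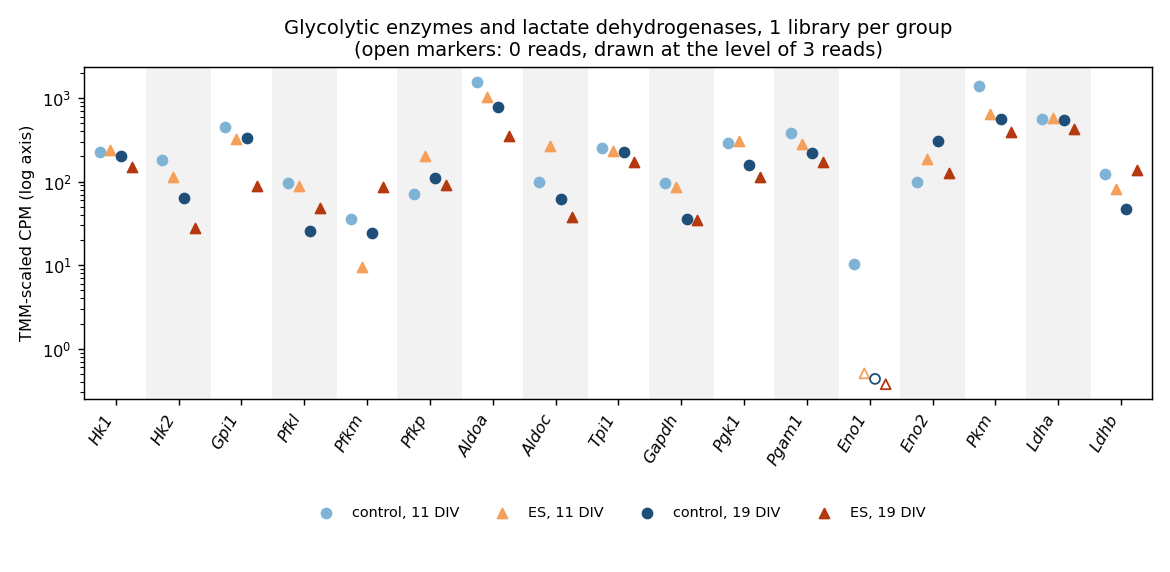
TMM-scaled CPM (log axis) of the 17 glycolytic enzymes in the 4 libraries, 1 point per library, circles for control and triangles for ES, light for 11 DIV and dark for 19 DIV. ES at 19 DIV is the lowest point for 11 of the 16 enzymes averaging 50 reads or more, Aldoa and Pkm are highest in control at 11 DIV, and Eno1 had reads in 1 library only.

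Hexokinase traps glucose in the cell as glucose 6-phosphate. Hk1, the form most tissues keep on, had 224 CPM in control and 236 CPM in ES at 11 DIV, and 201 and 151 CPM at 19 DIV. Hk2, the inducible form, had 183 CPM in control and 115 CPM in ES at 11 DIV, and 63.3 and 27.8 CPM at 19 DIV. The Hk2 level was thus lower in each library than in the one before it in this order, while Hk1 stayed within 1.56-fold from highest to lowest. Hk2 made up 45.0% (control) and 32.7% (ES) of the pair's reads at 11 DIV and 23.9% and 15.5% at 19 DIV. A share within a library does not depend on scaling, but the spread-adjusted intervals of these 4 shares, from 14.2% to 79.0% in control at 11 DIV and 0.230% to 65.2% in ES at 19 DIV, overlapped. Gpi1, which turns glucose 6-phosphate to fructose 6-phosphate, had 446 CPM in control and 322 CPM in ES at 11 DIV, and 335 and 89.2 CPM at 19 DIV, with ES at 19 DIV standing below the other 3.

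Phosphofructokinase commits the sugar to glycolysis, and its 3 isoform genes did not move together. Pfkl, the liver form, had 96.3 CPM in control and 88.8 CPM in ES at 11 DIV, and 25.8 and 48.5 CPM at 19 DIV. Pfkp, the platelet form, had 71.3 CPM in control and 203 CPM in ES at 11 DIV, and 109 and 90.4 CPM at 19 DIV, highest in ES at 11 DIV. Pfkm, the muscle form, had 206 (control) and 56 (ES) reads at 11 DIV and 166 and 691 reads at 19 DIV, and was lowest where Pfkp was highest. Their summed level was 203 and 301 CPM in control and ES at 11 DIV and 159 and 225 CPM at 19 DIV, which spans less than each isoform does.

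Aldolase splits fructose 1,6-bisphosphate. Aldoa, the main form of most tissues, was the most read member, with 1567 CPM in control and 1017 CPM in ES at 11 DIV, and 775 and 350.4 CPM at 19 DIV, 4.47-fold from the highest library to the lowest. Aldoc, a form of neural tissue, had 98.6 CPM in control and 268 CPM in ES at 11 DIV, and 61.4 and 38.1 CPM at 19 DIV, and its 20.9% share of the aldolase reads in ES at 11 DIV stood against 5.92% to 9.80% in the other 3 libraries. The intervals of these shares overlapped. Tpi1, which interconverts the triose phosphates, was the steadiest enzyme before pyruvate, at 251 and 232 CPM in control and ES at 11 DIV and 224 and 172 CPM at 19 DIV.

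Of the payoff phase, Gapdh oxidises glyceraldehyde 3-phosphate, Pgk1 makes ATP and Pgam1 moves the phosphate. Gapdh had 95.6 CPM in control and 85.4 CPM in ES at 11 DIV, and 35.5 and 34.9 CPM at 19 DIV. Pgk1 had 291 CPM in control and 309.9 CPM in ES at 11 DIV, and 159.6 and 113 CPM at 19 DIV, and Pgam1 had 382 CPM in control and 278 CPM in ES at 11 DIV, and 222 and 173 CPM at 19 DIV, so for all 3 genes both libraries at 11 DIV lay above both at 19 DIV. Mouse Gapdh, Pgk1 and Eno1 have near-identical copies in the genome, between which reads may be split, so their levels are uncertain. Eno1, the widely expressed enolase, had 60 reads in control at 11 DIV and 0 in the other libraries. Its near-identical copy Eno1b, looked up after these values were seen, had 1638 and 1176 reads in control and ES at 11 DIV and 813 and 718 at 19 DIV. Together Eno1 and Eno1b had 293 and 199 CPM in control and ES at 11 DIV and 118 and 89.9 CPM at 19 DIV, again higher at 11 DIV. Eno2, the neuronal enolase, had 99.9 CPM in control and 189 CPM in ES at 11 DIV, and 306 and 127 CPM at 19 DIV, higher at 19 DIV in control and higher at 11 DIV in ES.

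Pyruvate kinase and lactate dehydrogenase end the pathway. Pkm had 1393 CPM in control and 651 CPM in ES at 11 DIV, and 555 and 395 CPM at 19 DIV, and control at 11 DIV stood above the other 3 libraries. Ldha, the form that favours lactate formation, had 562 CPM in control and 575 CPM in ES at 11 DIV, and 541 and 429 CPM at 19 DIV, the narrowest range of the 17 enzymes at 1.34-fold. Ldhb, the form that favours lactate use, had 124 CPM in control and 80.5 CPM in ES at 11 DIV, and 46.9 and 136 CPM at 19 DIV. Its share of the lactate dehydrogenase reads was 18.1% and 12.3% at 11 DIV in control and ES, and 7.97% and 24.0% at 19 DIV, with overlapping intervals.

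The comparison of 19 with 11 DIV was made once in control and once in ES libraries, which share no library. Enzymes were mostly lower at the later age in both. The median log2 difference was -0.78 over 17 enzymes in control, with 15 below 0, and -0.79 over the 16 averaging 10 reads or more in ES, with 14 below 0. Over all genes with such a mean the medians were 0.00 in both comparisons, and 50.0% and 50.1% of genes were below 0. Over the 4 libraries, 16 enzymes averaged 50 reads or more. Of these, 12 were lower at 19 DIV in both comparisons, against 23.8% of all genes. The exceptions were Pfkm, Pfkp, Eno2 and Ldhb. Higher in both were 0 enzymes, and without a fold rule that share of all genes was not counted.

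Aldoa at 19 DIV was at 0.494 (0.283 to 0.846) times its 11 DIV level in control and 0.345 (0.151 to 0.737) in ES, and passed the spread-adjusted rule both times, as 7 of 8508 genes did (0.0823%). Pkm was at 0.398 (0.208 to 0.733) in control, past the rule, and at 0.607 (0.261 to 1.39) in ES, not past it. In control the Aldoa call was lost with DESeq2 size factors and with library totals, where its log2 difference of -0.99 and -0.88 fell short of 2-fold, and both calls were lost with a spread factor from genes of 1000 to 10000 mean reads. The rule called 0.459% of all genes lower and 0.16% higher in control, and 0.263% and 0.162% in ES. Hk2 was at 0.345 (0.0298 to 2.25) and 0.242 (0.00269 to 3.72), Pgk1 at 0.548 (0.135 to 1.99) and 0.364, and Gapdh at 0.372 (0.00807 to 5.50) and 0.409 (0.00859 to 7.75) times the earlier level, and the intervals of all 3 included equality. Ldha was at 0.963 (0.443 to 2.12) and 0.746 (0.321 to 1.73). Eno2 was 3.06 (0.712 to 21.2) times its earlier level in control and 0.672 (0.126 to 3.44) times in ES. No other member passed the spread-adjusted rule between the days.

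By the size rule, 1 enzyme was higher and 7 lower of 17 with enough reads in control, where the rule called 30.9% of all genes higher and 29.8% lower. In ES it was 1 higher and 7 lower of 16, against 30.9% and 30.5%. The counts of lower calls thus stood above the background share and those of higher calls below it. Hk2, Aldoa and Gapdh were called lower in both comparisons, 3 of 16 enzymes against 9.14% of all genes, and 0 enzymes were called higher in both against 9.84%.

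**Figure D2:**
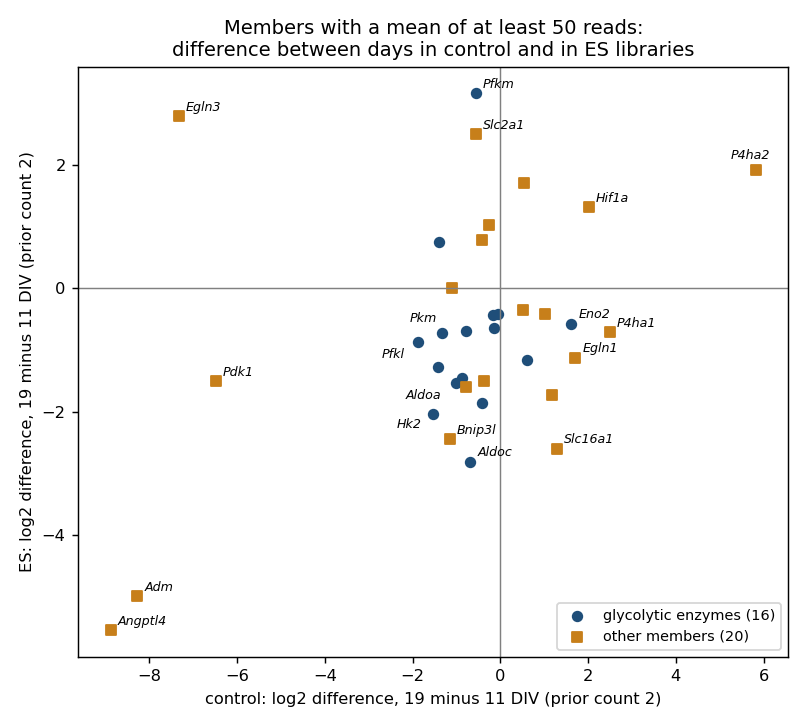
Each point is 1 of the 36 members averaging 50 reads or more; the axes give the log2 difference between 19 and 11 DIV in control (horizontal) and in ES (vertical), with a prior count of 2. Of the 16 enzymes (circles) 12 lie in the lower left and 0 in the upper right, while the 20 other members (squares) lie on all sides.

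An additive fit over the 4 libraries with ES and day as terms left 1 residual degree of freedom, and edgeR's quasi-likelihood test with Benjamini-Hochberg adjustment over 10050 genes called 0 of 36 members for either term, and 0.0% of all genes. At an unadjusted p under 0.05 it held 5 members for day (2.01% of all genes), namely Aldoa, Pkm, Bnip3l, Angptl4 and Adm, all lower at 19 DIV, and 0 for ES (1.08%). DESeq2 with the same design called 6.81% of the 10014 genes with an adjusted p for day and 3.78% for ES. Of the 36 members with one it called 7 for day, namely Aldoa, Pkm, Pgk1, Hk2, Bnip3l, Angptl4 and Adm, and 2 for ES, Aldoa and Pfkfb4, all with negative differences. limma with voom called 0 members and 0.0% of genes for each term. At an unadjusted p under 0.05 limma held 5 of 36 members for day, against 6.98% of all genes, and 2 for ES, against 5.63%. The median day difference of the 16 enzymes in the edgeR fit was -0.88, against -0.07 over all genes.

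The series asked about stimulation. At 11 DIV, the day after it, the enzymes showed little shared difference. Their median log2 difference between ES and control was -0.16, with 11 of 17 below 0, against -0.05 and 51.0% over all genes. Pkm was at 0.467 (0.254 to 0.833) times control and passed the spread-adjusted rule, which called 0.214% of all genes lower and 0.102% higher. It did not pass with DESeq2 size factors, with library totals or with the spread factor from genes of higher counts. Aldoa was at 0.649 (0.391 to 1.06), Gpi1 at 0.722 (0.273 to 1.84), Pgam1 at 0.728 (0.252 to 2.01) and Ldha at 1.02 (0.480 to 2.19) times control. On the higher side stood Pfkp at 2.85 (0.499 to 29.4), Aldoc at 2.72 (0.618 to 17.6) and Eno2 at 1.89 (0.371 to 12.9) times control. By the size rule 2 enzymes were higher and 3 lower of 17, against 28.9% and 29.6% of all genes. The control library at 11 DIV serves this comparison and that of the control ages, so the low values of Pkm in both rest on 1 shared library.

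At 19 DIV the median was -0.40 over 16 enzymes, with 13 below 0, against -0.06 and 51.4% over all genes. Gpi1 was at 0.266 (0.0474 to 1.03) times control, Eno2 at 0.415 (0.0987 to 1.45), Hk2 at 0.440 (0.00609 to 9.67) and Aldoa at 0.452 (0.204 to 0.951). The Aldoa interval excluded equality at 95% but the gene did not pass the rule at 99%. Summed aldolase was at 0.465 (0.219 to 0.943) times control, and summed lactate dehydrogenase at 0.961 times. Pfkm and Ldhb lay on the other side, at 3.59 (0.228 to 691) and 2.90 (0.375 to 60.7) times control. The size rule gave 2 enzymes higher and 4 lower of 16, against 29.4% and 31.3% of all genes. The spread-adjusted rule gave 0 members in either direction, against 0.13% of all genes higher and 0.13% lower.

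Over both days, 7 of the 16 enzymes were below control each time, against 23.6% of all genes. They were Hk2, Gpi1, Aldoa, Tpi1, Gapdh, Pgam1 and Pkm. Above control each time were 0 enzymes, and that share of all genes was not counted. Beyond intervals, whether the ES ratio differed between the days was not tested. The ratio at 19 DIV divided by that at 11 DIV was 0.697 (0.300 to 1.62) for Aldoa, 1.52 (0.614 to 3.79) for Pkm, 0.220 (0.0346 to 1.39) for Eno2 and 0.775 (0.287 to 2.09) for Ldha, and its interval included equality for all 29 members with reads in every library.

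**Figure D3:**
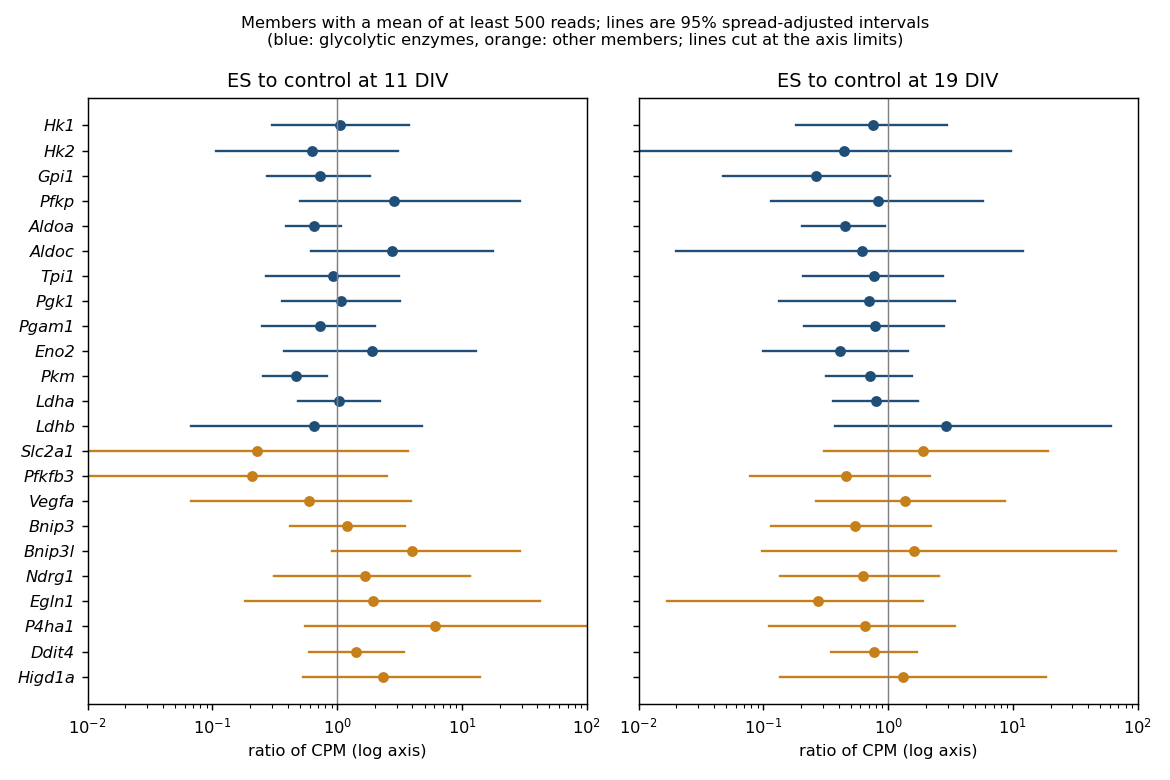
Ratio of CPM in ES to control (log axis) at 11 DIV (left) and 19 DIV (right) for the 23 members averaging 500 reads or more, with 95% spread-adjusted intervals as lines that end at the axis limits, enzymes in blue and other members in orange. Intervals that exclude equality belong to Pkm at 11 DIV and Aldoa at 19 DIV.

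Levels of neuronal, glial and fibroblast markers moved between the same libraries. The 10 sensory neuron markers summed to 2990 CPM in control and 3925 CPM in ES at 11 DIV, and 3867 and 1453 CPM at 19 DIV, so they were lowest in the library where most enzymes were lowest. Prph, an intermediate filament protein, was at 0.376 (0.171 to 0.775) and Stmn2, a microtubule regulator, at 0.332 (0.135 to 0.746) times control at 19 DIV. The 7 fibroblast markers summed to 4946, 6712, 9347 and 13027 CPM from control at 11 DIV through ES at 11 DIV and control at 19 DIV to ES at 19 DIV. The 8 Schwann and satellite glia markers summed to 3504, 5945, 8989 and 7622 CPM in that order. Col1a2 and Col1a1, chains of type I collagen, gave the most reads of the fibroblast list. Of the blood cell genes, Hba-a1 had 272 reads in control at 11 DIV and 0 elsewhere. Macrophage markers summed to 25.2 to 115 CPM, with Aif1 and Cx3cr1 at 0 in every library, and endothelial and pericyte markers to 96.5 to 175 CPM, with Pecam1 and Tek at 0 in every library. The 5 proliferation genes summed to 543 to 774 CPM. Reads of Rn45s, which encodes precursor ribosomal RNA, were 5.18% of all in control at 11 DIV and 2.65% to 3.08% in the other 3 libraries. The part of these in the enzyme levels was not tested.

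**Figure D4:**
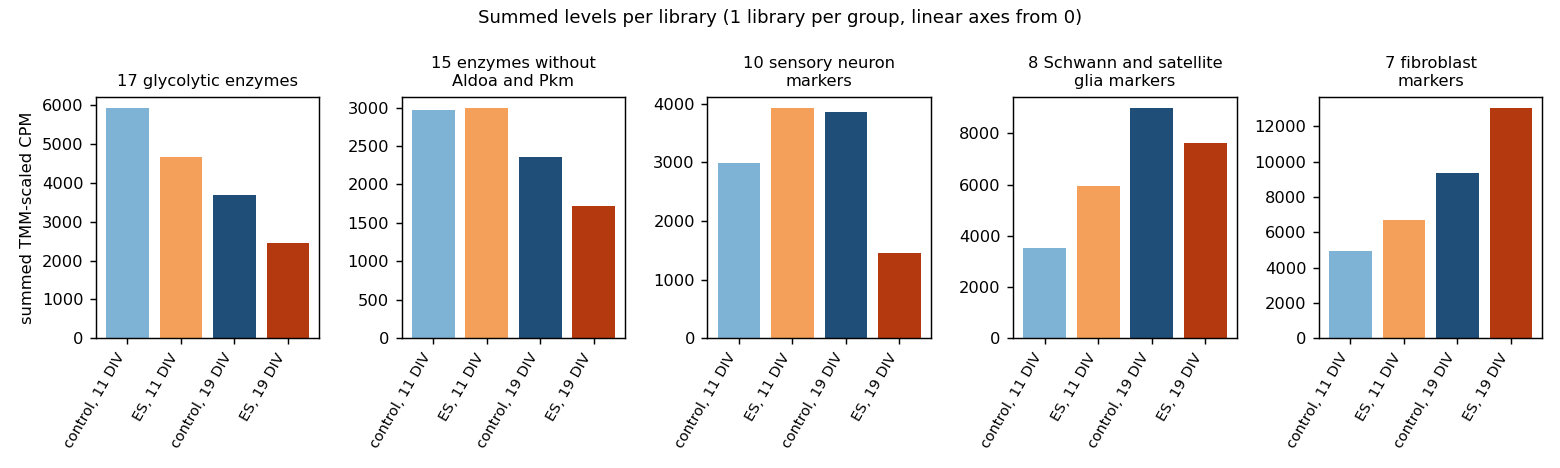
Summed TMM-scaled CPM per library (bars, linear axes from 0, 1 library per group) of the 17 enzymes, of 15 without Aldoa and Pkm, and of sensory neuron, Schwann and fibroblast markers. The enzyme sum goes from 5932 CPM in control at 11 DIV to 2462 CPM in ES at 19 DIV, where the neuronal sum is also lowest at 1453 CPM and the fibroblast sum highest at 13027 CPM.

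HIF binds a short core, ACGTG or GCGTG, near many of these genes, so the sequence around the start sites was read. RefSeq promoter windows of GRCm38.p6, running from 250 bases before to 50 bases after an annotated start, were found for 34 of the 38 members (48 windows). The core, on either strand, was in 21 of 28 windows of enzymes (75.0%) and 18 of 20 of the other members (90.0%), against 43.8% of all 32851 windows and 63.4% of the 9659 windows of genes averaging 50 reads or more here. The palindrome CACGTG counts on both strands. A match describes letters only. Each gene is shown by 1 window, that with the most matches where the table holds several (for Aldoa 1 of 2 windows with a single match). The windows printed are those of Aldoa and Pkm, the enzymes that passed the spread-adjusted rule, of Ldha, whose level was nearly flat with 7 matches in its window, of Pgk1 and Bnip3, lower at 19 DIV in both comparisons, and of Adm, near 0 at 19 DIV and chosen after its values were seen. Capitals mark the core on either strand, and each is read 5′ to 3′ on the strand of the gene.
Aldoa, chr7:126799205-126799504, minus strand: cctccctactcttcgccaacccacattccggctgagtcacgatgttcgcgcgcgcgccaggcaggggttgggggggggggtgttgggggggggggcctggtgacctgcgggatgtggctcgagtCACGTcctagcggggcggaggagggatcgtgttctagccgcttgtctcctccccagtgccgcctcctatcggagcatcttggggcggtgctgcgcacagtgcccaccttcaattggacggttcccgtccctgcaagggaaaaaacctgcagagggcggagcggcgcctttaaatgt
Pkm, chr9:59656977-59657276, plus strand: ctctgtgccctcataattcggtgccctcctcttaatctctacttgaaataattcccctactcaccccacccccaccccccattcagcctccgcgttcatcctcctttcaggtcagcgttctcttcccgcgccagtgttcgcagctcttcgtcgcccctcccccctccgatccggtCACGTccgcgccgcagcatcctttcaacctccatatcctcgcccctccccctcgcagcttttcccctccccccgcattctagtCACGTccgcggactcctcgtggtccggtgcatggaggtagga
Ldha, chr7:46845554-46845853, plus strand: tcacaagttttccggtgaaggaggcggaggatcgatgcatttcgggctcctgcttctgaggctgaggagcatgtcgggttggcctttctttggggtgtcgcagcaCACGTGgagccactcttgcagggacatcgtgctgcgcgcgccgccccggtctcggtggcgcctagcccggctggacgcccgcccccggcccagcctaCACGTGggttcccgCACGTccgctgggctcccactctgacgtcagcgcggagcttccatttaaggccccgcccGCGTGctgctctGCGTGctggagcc
Pgk1, chrX:106186850-106187149, plus strand: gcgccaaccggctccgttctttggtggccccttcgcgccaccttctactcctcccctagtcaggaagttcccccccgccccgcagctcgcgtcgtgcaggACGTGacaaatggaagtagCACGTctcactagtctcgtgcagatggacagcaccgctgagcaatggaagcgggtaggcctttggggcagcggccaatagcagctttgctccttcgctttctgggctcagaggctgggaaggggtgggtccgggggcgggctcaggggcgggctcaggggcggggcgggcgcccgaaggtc
Bnip3, chr7:138909457-138909756, minus strand: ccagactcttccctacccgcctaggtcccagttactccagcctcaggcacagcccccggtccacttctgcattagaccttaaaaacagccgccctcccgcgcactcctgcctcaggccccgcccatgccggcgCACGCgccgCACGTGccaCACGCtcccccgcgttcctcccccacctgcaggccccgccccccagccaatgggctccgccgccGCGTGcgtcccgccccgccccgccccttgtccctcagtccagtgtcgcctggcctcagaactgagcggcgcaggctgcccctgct
Adm, chr7:110627407-110627706, plus strand: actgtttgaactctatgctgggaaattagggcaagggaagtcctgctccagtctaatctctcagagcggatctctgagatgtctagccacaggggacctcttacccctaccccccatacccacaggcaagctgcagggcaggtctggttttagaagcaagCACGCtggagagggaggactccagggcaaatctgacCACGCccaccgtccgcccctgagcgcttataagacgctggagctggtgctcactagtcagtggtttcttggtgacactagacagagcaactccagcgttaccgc
The Aldoa window holds 1 match, those of Pkm, Pgk1 and Adm hold 2 each, that of Bnip3 holds 5 and that of Ldha 7. In the windows not printed, Aldoa had 1 and 0 matches, Pkm 0 and Ldha 2. Of the 17 enzymes 14 had a match in some window, as had all 17 of the other members with a window. Over all genes with a window, 12628 of 27025 had one (46.7%). The share by gene was not counted for genes averaging 50 reads or more. A gene with several windows has more places for a match.

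Of the other 21 members, 20 averaged 50 reads or more and 10 averaged 500 or more. Their direction as a group was not the same in every comparison. Their median log2 difference between ES and control was 0.32 at 11 DIV over 21 members and -0.37 at 19 DIV over 19, and between the days -0.37 in control over 21 and -0.56 in ES over 18. In control the sign depended on the minimum, since the 9 averaging 500 reads or more over the control libraries alone had a median of 0.51. By the size rule 5 were higher and 5 lower of 18 between ES and control at 11 DIV, 3 and 5 of 18 at 19 DIV, 7 and 6 of 20 between the days in control and 6 and 8 of 18 in ES, beside the background shares given above for each comparison. The 8 lower of 18 in ES between the days lay furthest above its background, and the 3 higher of 18 at 19 DIV furthest below. Pdk1, Bnip3l, Angptl4 and Adm were called lower at 19 DIV in both control and ES, 4 of 18 against 9.14% of all genes. P4ha2 and Hif1a were called higher in both, 2 of 18 against 9.84%. With no fold rule, 6 of 20 were lower in both, against 23.8% of all genes. Higher in both were 3, and without a fold rule that share of all genes was not counted. None of the 21 passed the spread-adjusted rule in any comparison, and 8 of the 21 had 0 reads in at least 1 library.

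**Figure D5:**
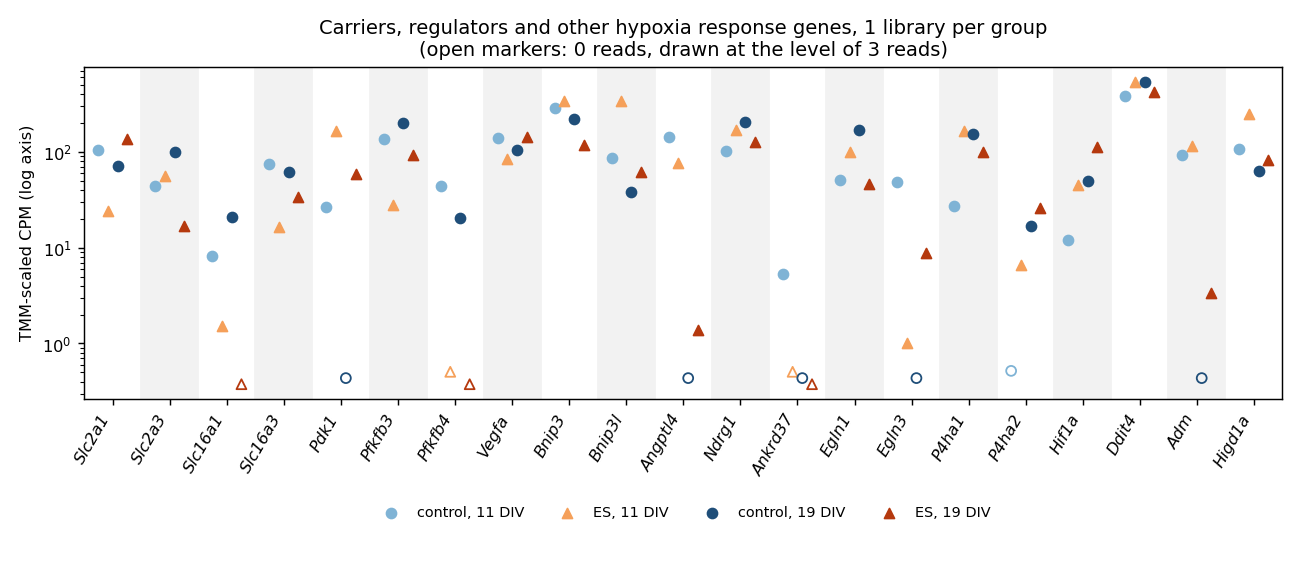
TMM-scaled CPM (log axis) of the 21 other members in the 4 libraries, symbols as in the plot of the enzymes, with open markers for 0 reads drawn at the level of 3 reads. Angptl4 and Adm lie at 77.3 CPM or more at 11 DIV and 3.38 CPM or less at 19 DIV, Hif1a lies higher at 19 DIV, and Ddit4 varies least.

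Angptl4 and Adm, both secreted products of HIF target genes, shared a pattern of presence at 11 DIV and near absence at 19 DIV. Angptl4, an inhibitor of lipoprotein lipase (chr17:33773750-33781830, protein-coding, minus strand), had 821 (control) and 458 (ES) reads at 11 DIV and 0 and 11 reads at 19 DIV. Adm, the precursor of adrenomedullin, a vasodilator peptide (chr7:110627661-110629820, protein-coding, plus strand), had 541 (control) and 690 (ES) reads at 11 DIV and 0 and 27 reads at 19 DIV. With 0 put at 3 reads, Angptl4 was 326-fold and Adm 215-fold lower at 19 DIV in control. In ES the ratios were 0.0178 and 0.0290, with counting intervals of 0.00883 to 0.0322 and 0.0190 to 0.0426. Both libraries at 11 DIV thus lay above both at 19 DIV for these genes, but the upper ends of the spread-adjusted intervals were 1.52 and 3.18 in control and 5.39 and 2.39 in ES, above equality. Vegfa, the endothelial growth factor (chr17:46016993-46032369), did not follow them, at 141 and 83.4 CPM in control and ES at 11 DIV and 105 and 144 CPM at 19 DIV.

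The mitochondrial members stood highest in ES at 11 DIV. Bnip3l, a receptor for the removal of mitochondria (chr14:66985239-67008877, protein-coding, minus strand), had 86.1 CPM in control and 340.3 CPM in ES at 11 DIV, and 38.4 and 62.2 CPM at 19 DIV. It was at 3.95 (0.913 to 28.9) times control at 11 DIV, and in ES at 0.183 (0.0178 to 0.943) times its earlier level at 19 DIV, an interval that excluded equality at 95% but not at 99%. Bnip3, its paralog, had 285 CPM in control and 339 CPM in ES at 11 DIV, and 220.2 and 119 CPM at 19 DIV, and Higd1a, a small protein of the inner mitochondrial membrane, 108 CPM in control and 249.8 CPM in ES at 11 DIV, and 62.5 and 82.0 CPM at 19 DIV. All 3 were higher in ES than in control at 11 DIV, with intervals that included equality, and at 19 DIV Bnip3 was at 0.542 (0.116 to 2.20) and Higd1a at 1.31 (0.135 to 18.3) times control.

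Among the oxygen sensors, Hif1a, the regulated HIF subunit (chr12:73901375-73947530, protein-coding, plus strand), had 70 (control) and 268 (ES) reads at 11 DIV and 343 and 903 reads at 19 DIV. It was higher with ES on both days and higher at 19 DIV in both treatments, with ratios of 3.74 and 2.27 for ES and 4.12 and 2.50 for the days, and every interval included equality. HIF activity is mainly set by the stability of this protein, which these data do not measure. Egln1, the main prolyl hydroxylase that marks HIF, had 297 (control) and 592 (ES) reads at 11 DIV and 1158 and 365 reads at 19 DIV. Egln3, an inducible hydroxylase, had 279 (control) and 6 (ES) reads at 11 DIV and 0 and 70 reads at 19 DIV. The hydroxylases thus stood highest in different libraries, Egln1 in control at 19 DIV and Egln3 in control at 11 DIV.

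Of the regulators of flux, Pdk1, a kinase that shuts pyruvate dehydrogenase, had 155 (control) and 987 (ES) reads at 11 DIV. At 19 DIV it had 0 (control) and 466 (ES) reads. Pdk1 was higher in ES on both days, at 6.23 (0.560 to 867) times control at 11 DIV. With 0 put at 3 reads it was 134-fold higher at 19 DIV. Pfkfb3, which makes the activator of phosphofructokinase, had 136 CPM in control and 28.2 CPM in ES at 11 DIV, and 199 and 92.2 CPM at 19 DIV, and was lower in ES on both days, at 0.207 (0.00194 to 2.49) and 0.463 (0.0777 to 2.16) times control. Pfkfb4, an isoform of it, had 256 (control) and 0 (ES) reads at 11 DIV and 140 and 0 reads at 19 DIV, reads in both controls and none in ES. On the same floor Pfkfb4 was 87.3-fold lower in ES at 11 DIV, and 54.1-fold lower at 19 DIV. The row of Tesc, another gene looked up after these values were seen, held nearly the same counts, 265 and 144 in the controls and 0 in ES, so whether these reads belong to Pfkfb4 is uncertain. No spread-adjusted interval of these 3 genes excluded equality.

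Of the carriers, Slc2a1, a glucose carrier of most cells, had 105 CPM in control and 24.0 CPM in ES at 11 DIV, and 71.4 and 136 CPM at 19 DIV, lowest in ES at 11 DIV and highest in ES at 19 DIV. Slc2a3, the neuronal glucose carrier, had 43.7 CPM in control and 56.5 CPM in ES at 11 DIV, and 98.9 and 16.9 CPM at 19 DIV. It was lowest in ES at 19 DIV, as the summed neuronal markers and many enzymes were, and a link with these was not tested. Slc16a1, a lactate carrier, had 48 (control) and 9 (ES) reads at 11 DIV and 143 and 0 reads at 19 DIV. Slc16a3, a carrier that exports lactate, had 429 (control) and 97 (ES) reads at 11 DIV and 425 and 268 reads at 19 DIV. Both lactate carriers were lower in ES than in control on both days, though Slc16a1 at 11 DIV was under the minimum of 50 reads. Of the other members averaging 50 reads or more, 4 of 20 were below control on both days, against 23.6% of all genes. Above control on both days were 6 of 20, and that share of all genes was not counted. No spread-adjusted interval of these carriers excluded equality.

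P4ha1 and P4ha2 are catalytic subunits of the enzyme that hydroxylates proline in collagen. P4ha1 had 156 (control) and 977 (ES) reads at 11 DIV and 1057 and 802 reads at 19 DIV, and P4ha2 had 0 (control) and 39 (ES) reads at 11 DIV and 116 and 206 reads at 19 DIV. For both, control at 11 DIV was the lowest library, as it was for the summed fibroblast markers, which include collagens. P4ha2, like that sum, was highest in ES at 19 DIV, while P4ha1 was highest in ES at 11 DIV. A link with the fibroblast markers was not tested. P4ha1 was at 6.12 (0.550 to 831) times control at 11 DIV and 0.655 (0.111 to 3.42) at 19 DIV.

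Ddit4, an inhibitor of mTOR signalling and the most read of these genes, had 379 CPM in control and 532 CPM in ES at 11 DIV, and 539.7 and 417 CPM at 19 DIV, and Ndrg1, a gene of differentiation and of Schwann cell myelin maintenance, had 101 CPM in control and 169 CPM in ES at 11 DIV, and 204 and 127 CPM at 19 DIV. Both were lowest in control at 11 DIV and highest in control at 19 DIV. Ddit4 in ES was at 1.40 (0.599 to 3.42) and 0.772 (0.349 to 1.69) times control at 11 and 19 DIV. Ankrd37 had 31 reads in control at 11 DIV and 0 in the others, too few to compare.

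Other genes of the pathways were counted from lists chosen by function. Of 50 further genes of sugar metabolism, 26 to 30 had enough reads in a comparison. At 11 DIV the size rule gave 6 higher and 7 lower of 26 in ES against control, where 28.9% and 29.6% of all genes were called. It gave 6 and 6 of 28 at 19 DIV (29.4% and 31.3% of all genes), 10 and 10 of 30 between the days in control (30.9% and 29.8%) and 7 and 6 of 30 in ES (30.9% and 30.5%). These counts were near or below the background. The spread-adjusted rule gave 0 higher in each, and 1 lower at 11 DIV, 0 at 19 DIV, 2 lower in control and 0 in ES. Those were enzymes of the pentose phosphate pathway, which branches from glucose 6-phosphate and makes NADPH. Pgd had 815 CPM in control and 258 CPM in ES at 11 DIV, and 246 and 235 CPM at 19 DIV, and was at 0.317 (0.118 to 0.753) times control at 11 DIV and 0.302 (0.111 to 0.728) times between the days in control. Taldo1 had 1098 CPM in control and 478 CPM in ES at 11 DIV, and 406 and 322 CPM at 19 DIV, at 0.435 (0.212 to 0.848) and 0.370 (0.172 to 0.749) in the same comparisons, of which the second passed the rule. Both were high in control at 11 DIV alone, as was Pkm, whereas Aldoa was also lower from 11 to 19 DIV in ES. Taldo1 and Pgd were also the most read genes of this list.

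Of 49 further hypoxia response genes, 36 to 38 had enough reads. By the size rule 11 were higher and 13 lower of 36 in ES at 11 DIV, 12 and 10 of 38 at 19 DIV, 10 and 16 of 38 between the days in control and 9 and 13 of 36 in ES. Beside the same shares of all genes, most of these counts were near the background, and the 16 lower in control lay furthest above it. By the spread-adjusted rule 0 were higher, and 1 was lower in each comparison except between the days in ES, where 0 were. Hmox1, heme oxygenase, which HIF and oxidative stress both raise, had 735 CPM in control and 127 CPM in ES at 11 DIV, and 21.2 and 28.1 CPM at 19 DIV, past the rule in both comparisons with control at 11 DIV. Mif, a cytokine and HIF target and the most read gene of the list, had 757 CPM in control and 694 CPM in ES at 11 DIV, and 679.5 and 209 CPM at 19 DIV. It was at 0.308 (0.111 to 0.754) times control at 19 DIV, past the rule, and at 0.301 (0.100 to 0.793) between the days in ES, not past it, so like Gpi1 it stood apart in ES at 19 DIV. Fam162a, a mitochondrial protein and the next most read of the list, had 365 CPM in control and 165 CPM in ES at 11 DIV, and 211 and 174 CPM at 19 DIV, and passed the rule in no comparison.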

How the data were processed

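RNA of 4 cultures was measured as 3' tags (QuantSeq, 500 ng of total RNA), per the labels' protocols. The authors deposited raw read counts per gene symbol, with no normalization; Bowtie2, bedtools and the build mm10 are listed in the submitters' processing notes. The sources used here give no versions, no strand setting and no rule for duplicate or multiply aligned reads, so overlapping genes and near-identical copies could not be told apart. Library sizes were scaled with TMM over the 4 libraries (edgeR 4.0.16, R 4.3.3). Ratios of CPM carry Clopper-Pearson intervals on counts divided by the spread factor (median squared difference over its chi-square median, genes of 500 to 3000 mean reads), and log2 differences used a prior count of 2. The additive fit used filterByExpr, glmQLFit and glmQLFTest, with DESeq2 1.42.0 and limma 3.58.1 as alternatives. Other alternatives were scalings, minimums, fold limits, thinning and the spread factor's range. Every member is named, from the 50-read minimum with its values; other pathway genes are the 2 most read and those past the spread-adjusted rule, and markers the 2 most read per list, some of which are not reported here. Members, lists and rules were chosen with earlier results of these data known. Positions are from GENCODE M21 on GRCm38, promoters from RefSeq on GRCm38.p6. The scripts (Python 3.11.15) were tested on simulated data. For the additive fit the counts were simulated without clumping, so that test does not cover the spread seen here.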

Additional observations from a re-analysis of the deposited data

Results flagged for a closer look

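The ES difference at 11 DIV and that at 19 DIV lay on opposite sides, each past the size rule, for Pfkm and Egln3. Pfkm was lower in ES at 11 DIV (56 against 206 reads) and higher at 19 DIV (691 against 166 reads), and the log2 differences of the 2 days differed by 3.71. Egln3 had 6 against 279 reads at 11 DIV and 70 against 0 at 19 DIV, a gap of 10.12 that rests on the prior count. The difference between days was not tested. Opposite calls were made for 18.6% of the 8460 genes with enough reads on both days, against 1 of 16 enzymes and 1 of 16 other members.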

How the results depend on the processing

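The enzymes' medians kept their sign in all 4 comparisons under every alternative run, and the 387 alternative values of single members kept their direction. The median of the other members turned at 19 DIV between ES and control with no minimum (0.0084), and between the days in control at 500 reads or more (0.51). Pkm was the member past the spread-adjusted rule at 11 DIV, and 0 passed with DESeq2 size factors, library totals or a spread factor from genes of 1000 to 10000 reads. Between the days in control those settings gave 1, 1 and 0 in place of 2. A 95% interval in place of 99% gave 1 lower between ES and control at 19 DIV (0 before) and 2 between the days in ES (1 before).

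Past the size rule, a 3-fold limit left 4 members higher of 7 at 11 DIV, 3 higher of 5 and 5 lower of 9 at 19 DIV, 5 higher of 8 and 6 lower of 13 between the days in control, and 8 lower of 15 in ES. A minimum of 500 reads left 3 lower of 8 at 11 DIV, 3 higher of 5 at 19 DIV, 5 higher of 8 and 8 lower of 13 in control, and 4 higher of 7 in ES. In the additive fit DESeq2 called 2 of 36 members for ES and 7 for day, where it called 3.78% and 6.81% of all genes and edgeR called 0 members. Of the other summary values, 149 kept their direction or stayed near the count reported. With Eno1b reads added to Eno1, chosen after seeing the data, enzyme medians were -0.16, -0.39, -0.78 and -0.87.

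Library totals alone moved the median of all genes by 0.13 on the log2 scale in the comparisons with control at 11 DIV, and the other scalings by at most 0.04. No paired analysis was possible because each group is 1 library with no replicate number, and leaving out a library leaves the additive fit no residual degree of freedom. At these depths 3 reads correspond to 0.376 to 0.518 CPM.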
